A study of Mus musculus with 2 samples.

Results

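The genes that carry the MHC class I presentation pathway were followed through the stromal cells of 2 intestinal grafts. The set held 10 genes, of 28692 features in the count matrices: B2m, H2-K1, H2-D1, Tap1, Tap2, Tapbp, Psmb8, Psmb9, Psmb10 and Nlrc5. They were chosen by their role in the pathway and matched by gene symbol, and all 10 were found in both matrices. Small or large intestine was taken from mouse embryos of an EYFP strain on a C57BL/6 background, at embryonic day E12.5 by the methods of the study, and placed beneath the capsule of a kidney in adult wild-type recipients. Graft-derived mesenchymal stromal cells were sorted 4 weeks later as live, YFP+, Itgb1+ cells lacking CD45, Ter119, BP3, CD31, EpCAM and L1CAM, and read by droplet-based single-cell RNA sequencing. There was 1 library of the small intestinal graft (SI graft) and 1 of the large intestinal graft (LI graft), so no difference between them has a replicate check and none was tested. The LI graft library pooled 3 grafts. The number of grafts behind the SI graft library and the sex of the embryos and recipients of each library are not given in the sources used here. The methods of the study state only that both sexes were used throughout.

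MHC class I molecules display short peptides from the inside of a cell to CD8+ T cells. Proteasomes cut cytosolic proteins, the TAP transporter (Tap1 and Tap2) carries the peptides into the endoplasmic reticulum, tapasin (Tapbp) holds the transporter against an empty class I molecule, and a heavy chain (H2-K1 or H2-D1 here) travels to the surface together with beta-2 microglobulin (B2m) once a peptide is bound. Psmb8, Psmb9 and Psmb10 replace the standard catalytic subunits to form the immunoproteasome, and Nlrc5 is the transactivator of class I genes. Nearly all nucleated cells use the pathway, at levels that interferons raise.

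The genes lie on 3 chromosomes in the mm10 (GRCm38) build, with positions from the GENCODE vM21 annotation. B2m stands on chr2:122147686-122153083 (+ strand). The MHC region of chromosome 17 holds Tapbp at chr17:33915899-33929292 (+), H2-K1 at chr17:33996017-34000347 (-), Psmb9 at chr17:34181987-34187764 (-), Tap1 at chr17:34187553-34197225 (+), Psmb8 at chr17:34197721-34201454 (+), Tap2 at chr17:34203527-34216321 (+) and H2-D1 at chr17:35262730-35267499 (+). Nlrc5, at chr8:94434356-94527272 (+), and Psmb10, at chr8:105935735-105938444 (-), are on chromosome 8. Tap1 and Psmb9 overlap head to head on opposite strands, and of the other genes only H2-K1 and H2-D1 overlap no annotated gene. Whether the counting used strand is not given in the sources used here, so reads in such overlaps cannot be assigned with certainty. H2-K1 and H2-D1 belong to a family of similar heavy chains, and their counts may hold reads of one another or of H2-Q and H2-T genes.

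The promoters of B2m and of the heavy chains are shown because H2-K1 and H2-D1 had the largest male over female ratios among LI graft fibroblasts below, with B2m as their partner, and because the elements that interferon and NF-kB pathways use can be read in them. Of the 10 genes, 8 had a window in the RefSeq promoter table (GRCm38.p6). Capitals mark the motifs searched in the 250 bases before each start, on both strands: the interferon-stimulated response element (in B2m), its shorter form GAANNGAAA, an NF-kB site (the capitals that open the H2-D1 stretch) and ATTGG (the CCAAT box).
B2m, chr2:122147507-122147685, + strand: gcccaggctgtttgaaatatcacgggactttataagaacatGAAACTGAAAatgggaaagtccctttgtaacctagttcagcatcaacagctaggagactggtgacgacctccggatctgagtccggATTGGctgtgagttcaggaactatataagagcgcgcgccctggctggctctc
H2-K1, chr17:34000348-34000527, - strand: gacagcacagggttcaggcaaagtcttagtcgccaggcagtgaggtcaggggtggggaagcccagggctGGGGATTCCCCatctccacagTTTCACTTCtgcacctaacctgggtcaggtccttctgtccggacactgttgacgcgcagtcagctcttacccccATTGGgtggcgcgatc
H2-D1, chr17:35262923-35262952, + strand: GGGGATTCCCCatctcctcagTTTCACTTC
H2-K1 and H2-D1 carried the NF-kB letters with the shorter interferon element, read on the other strand, right behind them, while B2m carried the full interferon element. The NF-kB letters lay 111 to 101 bases before the start of H2-K1 and 171 to 161 bases before that of H2-D1, the shorter element 90 to 82 and 150 to 142 bases before, and the full element of B2m 139 to 130 bases before. The B2m and H2-K1 stretches lie outside annotated exons, and the H2-D1 stretch lies in an exon of 1 of its transcripts. The full element stood in 2.98% of all 32851 windows, the shorter in 6.31%, the NF-kB letters in 0.0304% (10 windows) and ATTGG in 33.8%. The GAS letters TTCNNNGAA, found in 7.02% of windows, occurred in Psmb8 alone of the 8 genes, and ATTGG occurred in 6 of them (B2m, H2-D1, H2-K1, Psmb9, Tap1 and Tapbp). Only the NF-kB letters given were searched, so other forms of that site, in B2m or elsewhere, would not be marked. These are matches of letters, and no binding was measured.

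The LI graft matrix held 11568 barcodes with 63348069 UMIs (unique molecular identifiers, each standing for 1 captured transcript), and the SI graft matrix 9631 barcodes with 54918006 UMIs. Cells passed with 500 or more genes and no more than 10% of UMIs from mitochondrial genes, and barcodes with high doublet scores were taken out, which left 8882 and 7259 cells with medians of 5146.5 and 5547 UMIs. The libraries shared 26 barcodes, 14 of them among the retained cells. Cells were placed into classes by counting detected markers, and 8409 LI graft and 6838 SI graft cells fell into a stromal class. Fibroblasts (FB) made up 7174 cells (80.8%) and 5200 cells (71.6%), with 716 and 325 of them exactly at the limit of 5 of 8 markers. There were 532 and 1004 pericytes, 404 and 562 smooth muscle cells (SMC), and 272 and 53 interstitial cells of Cajal (ICC), the pacemaker cells of the gut wall. The summed fibroblast markers had a median of 4191.57 CPM (the UMIs of a gene over all UMIs of the group, scaled to a fixed total) in LI graft pericytes and 3550.1 in SI graft pericytes. It was higher in SMC, at 13784.5 and 10937.5 CPM, against 21372.7 and 24557.5 CPM in PDGFRAhi FB, the lowest of the FB classes, so SMC stood nearer to FB in these markers. The methods of the study name a 3′ and a 5′ kit without saying which library had which, so kit and graft cannot be told apart.

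All 10 genes were lower in LI graft FB than in SI graft FB. Levels are UMIs pooled over the cells of a class and scaled to CPM, with exact Poisson 95% intervals, and UMIs tag 1 end of a transcript, so levels are compared between cells and not between genes. All intervals cover counting error only. B2m stood at 929 CPM (920 to 938) in LI graft FB and 1692 CPM (1678 to 1707) in SI graft FB. The heavy chain H2-K1 stood at 913 CPM (904 to 922) and 2038 CPM (2022 to 2053). H2-D1 stood at 1217 CPM (1207 to 1227) and 2512 CPM (2495 to 2529). The light chain was thus 1.82-fold lower in the LI graft, and the heavy chains were 2.23-fold (H2-K1) and 2.06-fold (H2-D1) lower, with no overlap of the intervals.

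Of the transporter and loading genes, Tap1 differed about as much as B2m, and Tap2 and Tapbp differed less. Tap1 stood at 78.2 CPM (75.7 to 80.9) in LI graft FB and 146 CPM (141 to 150) in SI graft FB, and its partner Tap2 at 46.8 CPM (44.8 to 48.8) and 72.8 CPM (69.9 to 75.8). Tapbp, which encodes tapasin, had the smallest difference of the set, 172 CPM (168 to 175) against 223 CPM (218 to 228), or 1.30-fold. Of the immunoproteasome subunits, Psmb9 differed most, at 61.9 CPM (59.6 to 64.3) and 161 CPM (157 to 165), a 2.60-fold difference. Psmb8 stood at 162 CPM (159 to 166) and 288 CPM (282 to 293). Psmb10 stood at 87.4 CPM (84.7 to 90.2) and 165 CPM (160 to 169). The 3 subunits were all lower in the LI graft, by 1.77-fold (Psmb8) to 2.60-fold (Psmb9). The transactivator gene Nlrc5 was sparse, with 92 UMIs in all LI graft FB and 189 in all SI graft FB, or 2.08 CPM (1.68 to 2.55) against 5.77 CPM (4.98 to 6.66).

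On the log2 scale, with 1 CPM added, the LI over SI ratios ran from -1.36 (Psmb9) to -0.38 (Tapbp) with a median of -0.90, and the interval of each of the 10 ratios lay below 0, as did that of 29.6% of all genes. The median of all 8624 genes with at least 10 CPM in either library was -0.01. Of the 10 genes, 4 (H2-K1, H2-D1, Psmb9 and Nlrc5) were at least 2-fold lower on this scale, where 1.65% of all genes were. Here and below, shares of all genes cover genes with at least 10 CPM in either group. Nlrc5 often fell short of that level, as it did here, and of the 9 genes that reached it 3 were at least 2-fold lower. Pericytes and SMC had the same direction for all 10 genes, with a median of -1.27 and 7 genes at least 2-fold lower in pericytes (1.88% of all genes) and a median of -1.24 and 8 genes in SMC (2.93% of all genes). In SMC 9 genes reached 10 CPM, and 7 of them were at least 2-fold lower.

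Counted by cell, more SI graft FB held a transcript of each gene. After each cell was thinned to 2000 UMIs, which left out 454 LI graft and 312 SI graft FB that were shallower, a UMI of B2m was present in 66.1% of LI graft FB and 87.9% of SI graft FB. For H2-K1 the shares were 51.0% and 82.6%, and for H2-D1 64.8% and 88.9%. The surface chains were therefore seen in most FB of either graft at this depth. The shares were 12.9% and 20.3% for Tap1, 8.62% and 12.99% for Tap2, 28.0% and 33.6% for Tapbp, 22.2% and 33.9% for Psmb8, 10.5% and 21.6% for Psmb9, and 14.8% and 24.1% for Psmb10. For Nlrc5 they were 0.372% and 0.798%. Without thinning, H2-K1 was found in 71.1% of LI graft FB and 93% of SI graft FB, whose median depths were 5333.5 and 5756 UMIs. No class of cells can be taken to lack class I transcripts. Ptprc, which encodes the leukocyte antigen CD45 and should be absent from FB, had a UMI in 0.0298% of LI graft FB and 0.0205% of SI graft FB after the same thinning.

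The grafts held cells of both sexes in different proportions, and the level of every gene of the set went with sex. A cell was called male when it held a transcript from the Y chromosome (of Uty, Kdm5d, Eif2s3y or Ddx3y) and none of Xist, the RNA of the inactive X chromosome, and female in the opposite case. Of the retained LI graft cells 807 (9.09%) were male and 7236 (81.5%) female, and of the SI graft cells 1762 (24.3%) were male and 4019 (55.4%) female. Cells of 1 sex within a library share the embryos they came from (3 pooled grafts for the LI graft, a number not given in the sources used here for the SI graft), so sex cannot be told apart from embryo or graft. Male FB were deeper, with medians of 8847.5 against 5143 UMIs in the LI graft and 7768 against 5350 UMIs in the SI graft. Posterior position genes went with the graft in both sexes, since the summed Hox genes of the posterior groups 9 to 13 stood at 242 CPM in male and 312 CPM in female LI graft FB, and at 8.18 and 7.49 CPM in the SI graft. Other position and gut mesenchyme genes were lower in male LI graft FB, with Foxf1 at 74.8 against 143 CPM, Nkx2-3 at 112 against 184 CPM and the summed anterior Hox groups 1 to 8 at 169 against 252 CPM. In the SI graft Foxf1 stood at 144 against 136 CPM, Nkx2-3 at 281 against 305 CPM and these Hox groups at 457 against 508 CPM. The part of these differences in the class I values was not tested.

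B2m stood at 624 CPM in female and 2036 CPM in male LI graft FB, and at 1248 and 2314.5 CPM in the SI graft. H2-K1 spanned the widest range of the 3 surface chains as a fold, with 465 CPM in female and 2566 CPM in male LI graft FB and 1334 and 2973 CPM in the SI graft. H2-D1 stood at 686 and 3134 CPM in the LI graft and 1771 and 3484 CPM in the SI graft. For all 3 chains the order was therefore the same, with LI graft female FB lowest, SI graft female FB next, and male FB of the LI and SI grafts highest. Male LI graft FB held 5.52-fold more H2-K1 than female FB of the same graft, while in the SI graft the difference was 2.23-fold.

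**Figure D1:**
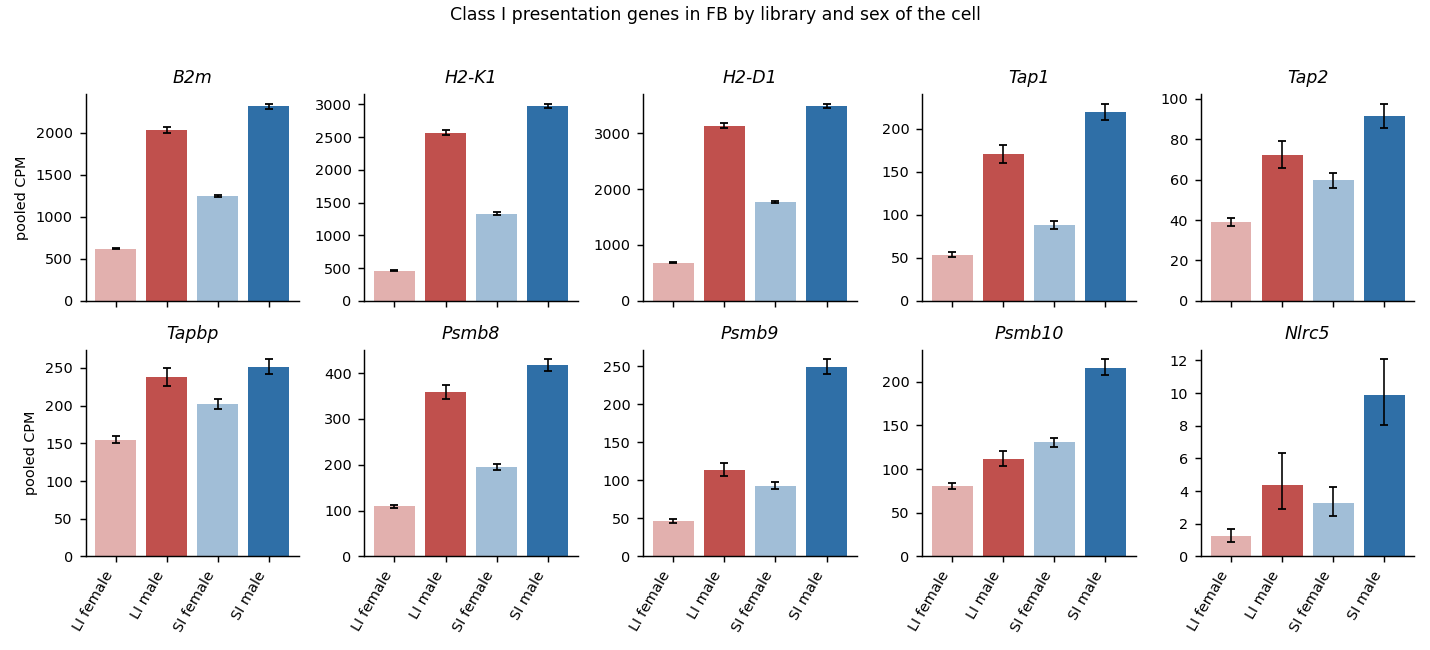
Pooled level in CPM (linear axis from 0) of each of the 10 genes in female and male fibroblasts of the LI and SI grafts, with exact Poisson 95% intervals as error bars, which cover counting error only. The bar of LI graft female cells is the lowest in each panel, and the bar of SI graft male cells is the highest.

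The transporter gene Tap1 stood at 53.8 CPM in female and 170 CPM in male LI graft FB, and at 88.0 and 219 CPM in the SI graft. Tap2 stood at 39.0 and 72.3 CPM, and at 59.6 and 91.2 CPM. Tapbp varied least, with 155 and 238 CPM in the LI graft and 202 and 251 CPM in the SI graft. Here too each gene was higher in the male cells, though for Tap2 and Tapbp the SI graft female FB came closer to the LI graft male FB than they did for the surface chains. Psmb8 stood at 109 and 358 CPM in the LI graft and 194 and 417 CPM in the SI graft. Psmb9 stood at 46.8 and 114 CPM, and at 92.9 and 249 CPM. Psmb10 stood at 80.5 and 112 CPM, and at 131 and 216 CPM. Psmb10 was the only gene of the set higher in female SI graft FB than in male LI graft FB. Nlrc5, with 28 to 98 UMIs in each group, stood at 1.26 and 4.40 CPM in the LI graft and 3.29 and 9.90 CPM in the SI graft.

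Male over female, all 10 genes were higher in both grafts with intervals above 0, as were 34.5% (LI graft) and 13.3% (SI graft) of all genes. In the LI graft the log2 ratios ran from 0.47 (Psmb10) to 2.46 (H2-K1) with a median of 1.45, against -0.04 for all genes. There 7 genes (6 of the 9 with at least 10 CPM) were at least 2-fold higher where 5.01% of all genes were. A further 9.77% of all genes were at least 2-fold lower in the male LI graft FB, and 4 of 5 housekeeping genes were higher in them, with Gapdh at 2211 CPM against 638 CPM. In the SI graft the ratios ran from 0.31 (Tapbp) to 1.41 (Psmb9) with a median of 1.04, against -0.07 for all genes. There 5 genes (4 of the 9 with at least 10 CPM) were at least 2-fold higher where 1.26% of all genes were. There Gapdh stood at 557 CPM in male and 534 CPM in female FB. The part of depth and of these other genes in the ratios of the LI graft was not tested beyond the matched depth below. At 2000 UMIs per cell, a UMI of H2-K1 was present in 43.0% of female and 95.6% of male LI graft FB, and in 76.6% and 91.5% of SI graft FB.

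Set side by side within 1 sex, the grafts still differed in female cells, and the median of the set differed less in male cells, though not every gene did. In female FB the LI over SI log2 ratios were -0.9998 for B2m, -1.52 for H2-K1 and -1.37 for H2-D1, and the median of the 10 genes was -0.88, close to that of all FB. The count at least 2-fold lower was 2 (H2-K1 and H2-D1), where 1.36% of all genes were. In male FB the ratios were -0.18 for B2m, -0.21 for H2-K1 and -0.15 for H2-D1, and the median was -0.27. Tapbp, at -0.08 (-0.17 to 0.01), was the only gene of the set whose interval held 0. The interval lay below 0 for 32.2% of all genes. The ratios of Psmb9 (-1.12), Nlrc5 (-1.01) and Psmb10 (-0.95) in male FB stood apart from those of the surface chains. Each of these genes differed more between the grafts in male than in female FB. At least 2-fold lower in male FB were 2 genes (Psmb9 and Nlrc5), where 8.15% of all genes were. Nlrc5 lay below 10 CPM in male FB of both grafts, and of the 9 genes that reached it 1 was at least 2-fold lower.

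**Figure D2:**
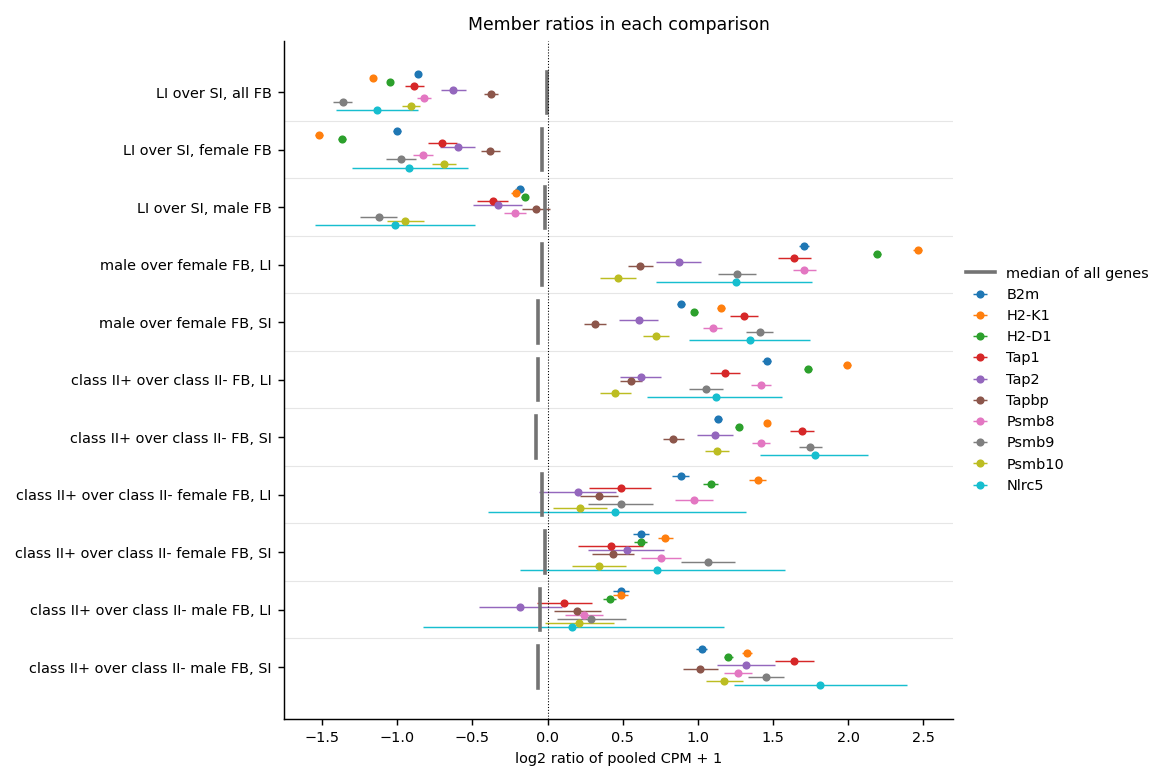
Log2 ratio of pooled CPM + 1 for each of the 10 genes (colored points, with 95% intervals of counting error) in each comparison, and the median of all genes with at least 10 CPM (grey bar). All points of both male over female comparisons plotted, which take all FB of a graft, lie above 0 and all points of the LI over SI comparisons lie below 0, with the surface chains near 0 in male FB.

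The differences by sex were not limited to FB. In the SI graft, male pericytes (295 cells) exceeded female pericytes (443 cells) in all 10 genes with a median log2 ratio of 2.11, and all 10 were at least 2-fold higher where 2.6% of all genes were. In SI graft SMC the median was 1.81 and 9 genes were at least 2-fold higher, where 2.85% of all genes were. The LI graft had only 49 male pericytes, with a median of 1.73 and 8 genes at least 2-fold higher, where 9.43% of all genes were. Female pericytes of the grafts differed less than all pericytes did, with a LI over SI median of -0.50 and no gene at least 2-fold lower (2% of all genes), and 6 of the 10 intervals lay below 0 (10.1% of all genes). Female SMC had a median of -0.62 and 2 such genes (3.02% of all genes).

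The order of the stromal classes depended on which cells were counted. FB were split into gated subsets: PDGFRAhi FB, which line the epithelium and make BMP ligands, Grem1 CD81 FB, which make the BMP inhibitor Gremlin, Pi16 FB, an adventitial kind, Fgfr2 FB, and the remaining FB. Most gated Grem1 CD81 FB (928 of 1276 LI graft and 820 of 1263 SI graft cells) and Fgfr2 FB (897 of 1096 and 797 of 978) sat exactly at their limit of 3 markers, as did 230 of 272 ICC and 301 of 524 Pi16 FB in the LI graft and 29 of 53 ICC and 136 of 360 Pi16 FB in the SI graft, so these borders are loose. Over all cells of the LI graft, Grem1 CD81 FB were highest for B2m (1194 CPM), H2-K1 (1331 CPM), H2-D1 (1687 CPM), Tap1 (96.6 CPM) and Psmb8 (205 CPM). In this class 21.4% of cells were male, the largest male share among the LI graft classes with at least 50 cells. Over all cells of the SI graft, pericytes were highest for B2m (2105 CPM), Tap1 (229 CPM), Tap2 (117 CPM), Psmb9 (228 CPM) and Psmb10 (309 CPM), and 29.4% of them were male. The interval of the next class overlapped for Tap1 in the LI graft (pericytes) and for Tap2 and Psmb9 in the SI graft (PDGFRAhi FB). The SI graft had larger male shares in Pi16 FB (35.6%) and in Fgfr2 FB (30.9%).

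Within female cells the order split by the step of the pathway. PDGFRAhi FB were highest in both grafts for the transporter, loading and immunoproteasome genes. Psmb8 stood at 154 CPM in LI graft and 369 CPM in SI graft female PDGFRAhi FB, above the next class in each graft without overlap of the intervals. Psmb10 stood at 123 and 230 CPM, Psmb9 at 82.5 and 137 CPM, and Tapbp at 201 and 275 CPM. For Tap1 (73.0 and 115 CPM) and Tap2 (51.8 and 73.5 CPM) the interval overlapped that of the next class in both grafts, as it did for Nlrc5 (2.59 and 5.58 CPM, from few UMIs). It also did so for Psmb10 and Tapbp in the LI graft and for Psmb9 in the SI graft. The surface chains were ordered otherwise, highest in Pi16 FB of the LI graft (B2m 744, H2-K1 729 and H2-D1 871 CPM) and in Fgfr2 FB of the SI graft (B2m 1409, H2-K1 1539 and H2-D1 1998 CPM). In the SI graft the intervals of Fgfr2, Pi16 and PDGFRAhi FB overlapped for all 3 chains.

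**Figure D3:**
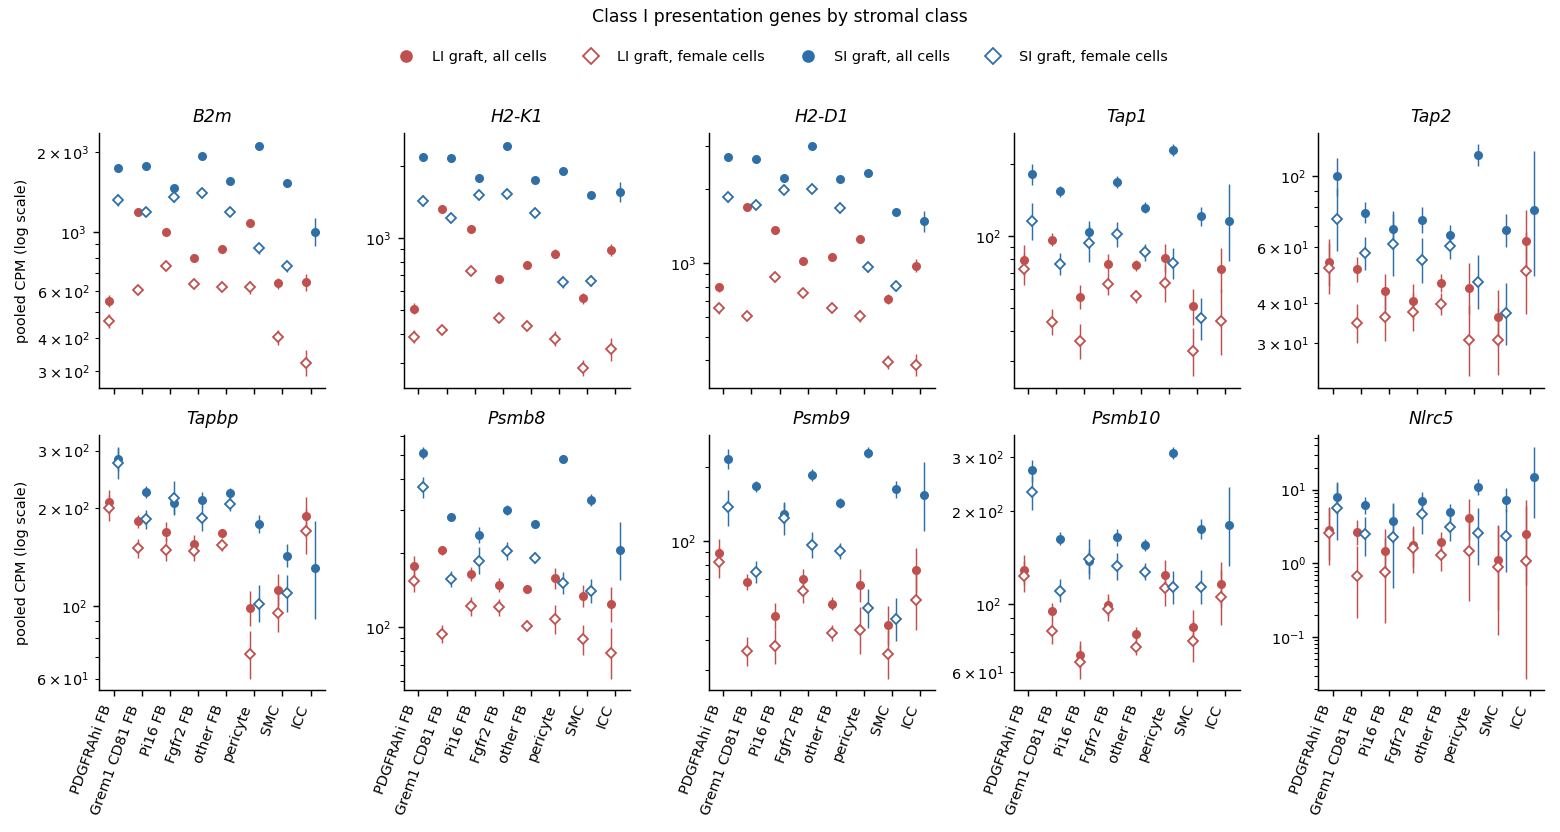
Pooled level in CPM (log axis) of each of the 10 genes by gated stromal class, for all cells (filled circles) and female cells (open diamonds) of the LI graft (red) and SI graft (blue), with exact Poisson 95% intervals. Groups under 50 cells are left out. The SI graft points lie above the LI graft points of the same class for the surface chains, and among the female cells PDGFRAhi FB lead the immunoproteasome genes in both grafts.

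At the low end of the female cells for the surface chains stood SMC and ICC of the LI graft and SMC and pericytes of the SI graft. LI graft female pericytes were not low throughout, below only Pi16 and Fgfr2 FB for B2m and next to PDGFRAhi FB for Tap1 and Psmb10. H2-K1 stood at 287 CPM in LI graft SMC and at 656 CPM in SI graft pericytes, the lowest class of each graft. B2m was lowest in ICC of the LI graft (321 CPM) and SMC of the SI graft (745 CPM), and H2-D1 in ICC (383 CPM) and SMC (802 CPM). SI graft female ICC numbered under 50 cells and were left out. Over all SI graft cells, pericytes over FB had a median log2 ratio of 0.58, with 7 genes higher (60.1% of all genes were, with a median of 0.13) and H2-K1 (-0.10), H2-D1 (-0.11) and Tapbp (-0.32) lower, but among female cells pericytes were lower in all 10, with a median of -0.44 and 1 gene at least 2-fold lower, where 9.39% of all genes were. For the LI graft the same medians were 0.05 and -0.06. SMC over FB had medians of -0.53 (LI graft) and -0.12 (SI graft) over all cells, and the SI graft median was -0.81 among female cells. Among SI graft cells thinned to 2000 UMIs, H2-K1 was found in 75.9% of pericytes and 73.9% of SMC, and in the LI graft in 52.1% of pericytes and 35.4% of SMC.

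The lower level of female LI graft FB held within each subset. The LI over SI medians of the 10 genes in female cells were -0.88 in Grem1 CD81 FB, -0.98 in Pi16 FB, -0.72 in Fgfr2 FB, -0.89 in PDGFRAhi FB and -0.88 in the remaining FB, and all 10 genes were lower in each, with 9 of 10 intervals below 0 in Pi16 and PDGFRAhi FB and 10 in the others. Among all genes, the interval lay below 0 for 15.6% in Grem1 CD81 FB, 17.2% in Pi16 FB, 16.6% in Fgfr2 FB, 18% in PDGFRAhi FB and 27.1% in the remaining FB. Of all genes, 40.3% to 51.5% were higher in the LI graft in these comparisons. The lowest single ratio of H2-K1 was that of PDGFRAhi FB, -1.88. Male over female medians were 1.66 in LI graft and 1.29 in SI graft Grem1 CD81 FB, 1.61 and 0.99 in the remaining FB, and 1.18 and 0.37 in Pi16 FB. In Pi16 FB of the SI graft (128 male and 174 female cells) only 5 of the 10 intervals lay off 0, as did 16.7% of those of all genes. In Fgfr2 FB and PDGFRAhi FB of the SI graft the medians were 0.91 and 1.02, and the LI graft held too few male cells of these subsets for a value.

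The immunoproteasome was set against the standard proteasome by pairing each inducible subunit with the one it replaces, which gives a share within 1 cell group that does not depend on the total of the library. The share still depends on how each gene of the pair was captured, and the kit of each library is not known. Over all FB, Psmb8 made up 49.3% (LI graft) and 66.1% (SI graft) of its pair with Psmb5. Psmb9 made up 22.3% and 44.4% of its pair with Psmb6, and Psmb10 made up 52.3% and 66.6% of its pair with Psmb7. Summed over the 6 subunits, the inducible ones were 40.3% of UMIs in LI graft FB and 58.7% in SI graft FB. The inducible share was thus lower in the LI graft for every pair.

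Of the 4 groups of sex and graft, male FB of the SI graft held the largest inducible shares, 74.6% for Psmb8, 56.8% for Psmb9 and 72.9% for Psmb10, against 56.2%, 30.6% and 60.9% in female FB. LI graft shares were 57.0%, 27.1% and 49.7% in male and 43.9%, 19.7% and 53.1% in female FB, so that Psmb10 had a slightly lower share in the male cells. The standard subunits differed between the grafts in how they went with sex. Psmb5 stood at 270 CPM in male and 139 CPM in female LI graft FB, but at 142 and 152 CPM in the SI graft. Psmb6 stood at 305 and 191 CPM, and at 189 and 211 CPM. Psmb7 stood at 113 and 71.2 CPM, and at 80.3 and 84.0 CPM. In the LI graft inducible and standard subunits were therefore both higher in male FB, whereas in the SI graft the inducible ones alone were. Among female SMC the Psmb8 share was 36.7% in SI graft and 31.4% in LI graft cells, and the Psmb9 share 13.6% and 12.02%. Female ICC of the LI graft stood at 27.3% for Psmb8, with an interval that overlapped that of SMC, and at 15.9% for Psmb9.

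**Figure D4:**
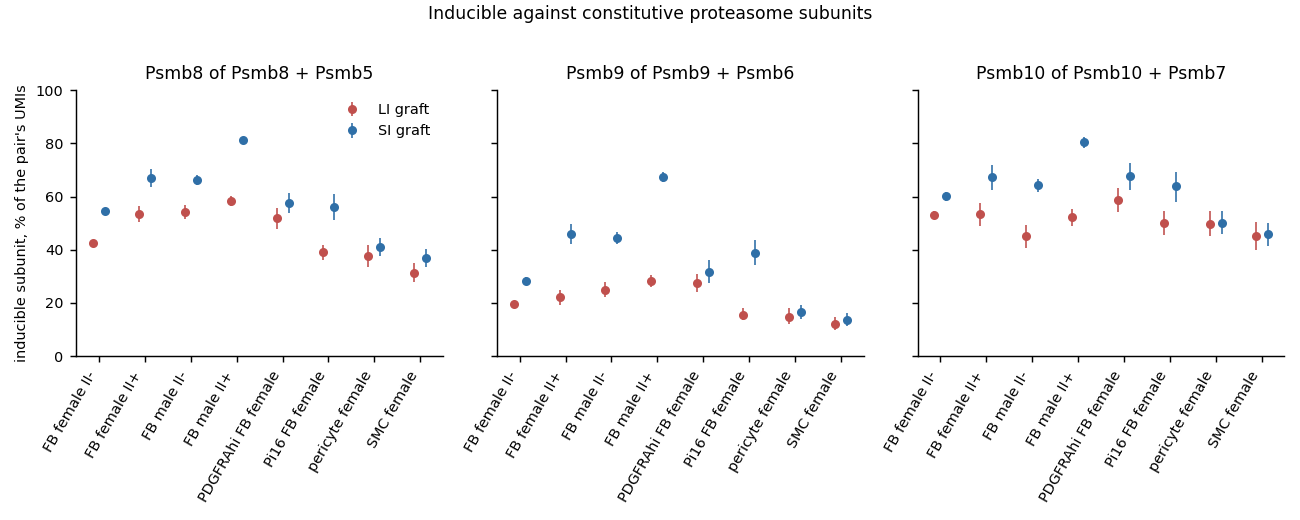
Share of UMIs, in percent, from the inducible subunit of each catalytic pair (Psmb8 with Psmb5, Psmb9 with Psmb6, Psmb10 with Psmb7) in groups of cells of the LI graft (red) and SI graft (blue), with exact binomial 95% intervals. II+ are FB with a UMI of at least 2 of 4 MHC class II genes, and II- are all other FB. The share is highest in male II+ FB of the SI graft in each panel.

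Some FB also held transcripts of MHC class II, whose molecules present antigen to CD4+ T cells. FB with a UMI of at least 2 of 4 class II genes (Cd74, H2-Aa, H2-Ab1 and H2-Eb1) numbered 991 among LI graft and 887 among SI graft cells. They were deeper than the other FB, with medians of 8010 against 5105 and 7730 against 5529 UMIs, and were 57.6% of male but 6.56% of female LI graft FB, and 33.7% and 8.75% in the SI graft. Class II positive over negative, all 10 genes were higher in both grafts, with a median log2 ratio of 1.15 and 7 genes at least 2-fold higher in the LI graft (2.46% of all genes) and 1.34 and 9 genes in the SI graft (1.8% of all genes). Of the 9 genes with at least 10 CPM in the LI graft, 6 were at least 2-fold higher. In the LI graft H2-K1 led with 1.99, and in the SI graft Nlrc5 (1.78), Psmb9 (1.75) and Tap1 (1.69) did.

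Within 1 sex the picture differed between the grafts. In female FB the medians were 0.49 with 2 genes at least 2-fold higher in the LI graft (1.02% of all genes) and 0.62 with 1 gene in the SI graft (1.06% of all genes). In male FB of the LI graft the median was 0.23 and no gene was at least 2-fold higher (1.56% of all genes). There 6 of the 10 intervals lay above 0, as did 9.67% of those of all genes, and the interval of Tap2, at -0.18, held 0. In male FB of the SI graft the median was 1.29 and all 10 genes were at least 2-fold higher (2.1% of all genes). H2-K1 there stood at 4685 CPM in class II positive and 1869 CPM in negative cells, Psmb9 at 406 and 147 CPM, and Tap1 at 374 and 119 CPM. In male FB of the LI graft the same genes stood at 2855 and 2037 CPM, 121 and 99.2 CPM, and 175 and 162 CPM. Among FB grouped by graft, sex and class II, these 3 genes were thus highest in the class II positive male FB of the SI graft. Male pericytes of the SI graft held still more of some genes, with Psmb8 at 804 CPM against 647 CPM in those FB, Psmb10 at 481 against 328 CPM and Tap2 at 167 against 144 CPM. Immune markers went with class II: the 8 markers summed to 62.5 CPM in class II positive and 34.9 CPM in negative LI graft FB and to 88.1 and 33.2 CPM in the SI graft, against 3478 and 1419 CPM in the cells gated as immune. In male FB alone the sums were 28.7 and 24.5 CPM (LI graft) and 74.7 and 29.1 CPM (SI graft). Cd3e had no UMI in LI graft FB and stood at 0.277 CPM in class II positive SI graft FB. The part of these transcripts in the ratios was not tested.

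FB called class II negative, with a UMI of fewer than 2 of the 4 class II genes, still differed by sex. In the LI graft (283 male and 5497 female cells) the male over female median was 1.33 with 8 genes (7 of the 9 with at least 10 CPM) at least 2-fold higher, where 5.34% of all genes were. In the SI graft (792 and 2783 cells) it was 0.47 with none at least 2-fold higher, where 0.674% of all genes were, with Tap2 at 0.00 and Tapbp at -0.12. Class II itself still went with sex in these cells. Of 2 class II genes with at least 10 CPM, 2 were at least 2-fold higher in male LI graft cells (median log2 ratio 1.59). In the SI graft 0 of 2 were (median 0.36). The part of this in the class I values was not tested. Set side by side, the class II negative male FB of the LI graft were above those of the SI graft for 6 of the 10 genes: H2-K1 stood at 2037 and 1869 CPM, H2-D1 at 2579 and 2307 CPM, Psmb8 at 320 and 269 CPM, Tap1 at 162 and 119 CPM, Tap2 at 78.3 and 57.2 CPM, and Tapbp at 217 and 179 CPM. The interval of the LI over SI ratio lay above 0 for each of these 6, as it did for 26.4% of all genes. This comparison was added after the data were seen. Psmb9 and Psmb10 were lower in the LI graft cells (99.2 against 147 and 101 against 145 CPM), and for B2m (1615 and 1645 CPM) and Nlrc5 (9 and 27 UMIs) the intervals overlapped.

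Single cells spread widely around these pooled levels. The summed level of the 3 surface chains had a median of 1142 CPM in female and 7361 CPM in male LI graft FB, and of 3344 and 6619 CPM in the SI graft. LI graft FB of the 2 sexes barely met, since the 10th percentile of male FB was 3498 CPM and the 90th percentile of female FB 3161 CPM. In the SI graft the same limits were 2605 CPM for male and 9242 CPM for female FB, so the groups overlapped over most of their range. Class II positive male FB of the SI graft had a median of 14381 CPM, against 5035 CPM in class II negative male FB, and the LI graft medians were 8468 and 5675 CPM. In female FB the medians were 1673 and 1122 CPM in the LI graft and 5376 and 3202 CPM in the SI graft.

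**Figure D5:**
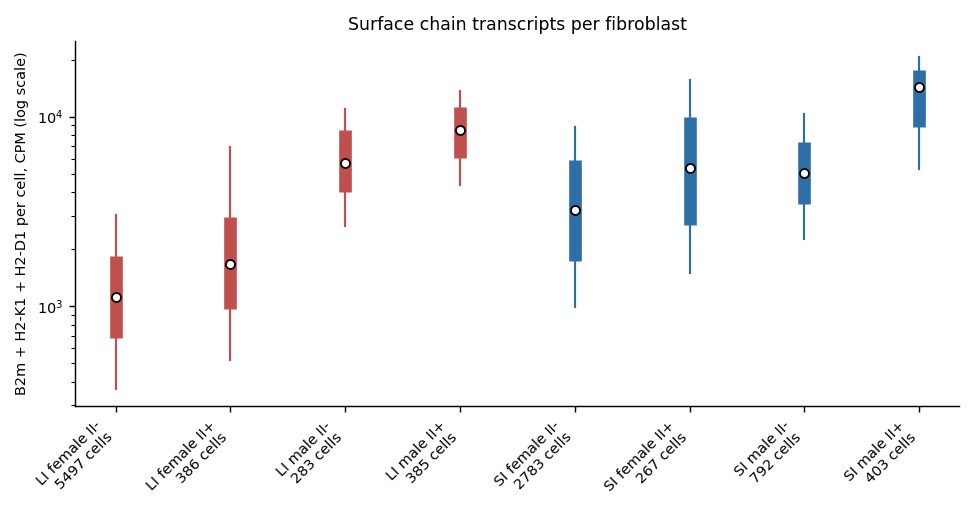
Summed B2m, H2-K1 and H2-D1 level per fibroblast in CPM (log axis) by graft, sex and class II transcripts. Circles are medians over cells, thick bars run from the 25th to the 75th percentile and thin lines from the 10th to the 90th, and the LI graft female II- cells, with a median of 1122 CPM, lie lowest.

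Genes of related function from lists drawn up for the pathway went partly with the set. Of 6 other class I chains with at least 10 CPM, all were lower in LI graft FB (median log2 ratio -0.85), with H2-Q7 at 119 and 309 CPM and H2-Q6 at 73.4 and 180 CPM in the LI and SI grafts. Of the 6 chaperones and trimming enzymes that help load class I, 3 were lower and 2 higher (median -0.07), with Tapbpl at 20.4 and 36.1 CPM. Both Psme1 and Psme2, which form the interferon-inducible proteasome activator, were lower, at 192 and 241 CPM and at 116 and 156 CPM. Of 10 interferon targets 8 were lower and 6 of them at least 2-fold (median -1.05, against 1.65% of all genes at least 2-fold lower), with the chemokine gene Cxcl10 at 521 and 1823 CPM and the GTPase gene Gbp4 at 18.3 and 59.998 CPM. Of 14 genes of interferon signalling 8 were lower (median -0.19), where the interval of 29.6% of all genes lay below 0, with Irf1 at 309 and 605 CPM. No interferon gene of 3 searched (Ifnb1, Ifng and Ifnl3) reached 10 CPM in FB. The 5 housekeeping genes had a median of 0.07, and Gapdh alone of them was far from it, at 987 and 535 CPM.

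By sex the interferon signalling genes were mixed in the LI graft, unlike the other class I chains and the interferon targets. All 6 loading and trimming genes (median 0.70) and all 3 proteasome activator genes (median 0.92) had intervals above 0 in male over female LI graft FB. In the SI graft 4 loading genes lay above 0 and 2 below, and 2 activator genes lay above. All 6 other class I chains were higher in male FB of both grafts, with H2-Q7 at 32.4 CPM in female and 428 CPM in male LI graft FB and 154 and 516 CPM in the SI graft. Of the interferon targets 9 of 10 were higher in male FB of each graft, 6 of them at least 2-fold (5.01% of all genes in the LI and 1.26% in the SI graft), with Cxcl9 at 112 and 1108 CPM in the LI graft and 172 and 1408 CPM in the SI graft. Of the 14 interferon signalling genes, 5 had an interval above 0 and 3 one below 0 in the LI graft, and 11 and 0 in the SI graft, where 34.5% and 13.3% of all genes lay above 0. Irf1 and Socs1, named after their values were seen, were lower in male FB of the LI graft (268 against 325 CPM and 106 against 160 CPM) and higher in male FB of the SI graft (704 against 545 CPM and 359 against 160 CPM).

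Across 25 groups of stromal class, graft and sex with at least 50 cells, Nlrc5, from few UMIs, spanned a 30.5-fold range, H2-K1 11.6-fold, Tap1 10.8-fold, Psmb9 10.4-fold, H2-D1 10.25-fold, Psmb8 10.2-fold, B2m 9.62-fold, Psmb10 7.41-fold, Tap2 5.46-fold and Tapbp 4.44-fold. The level of H2-K1 went most closely with H2-D1 (Pearson r = 0.99 on the log2 scale) and B2m (0.98), and least closely with Tapbp (0.78) and Psmb10 (0.69). These groups share 2 libraries and, within each, the same droplets and depth, so the correlations are descriptions. Over the 16 groups of class and graft without regard to sex, the genes outside the set whose levels were most like its sum, of 5181 genes ranked, were H2-Q7 (r = 0.97), H2-T22 (0.94), Gm4951 (0.90), Ddx3y (0.90), Gbp5 (0.89), H2-Q6 (0.88), Irgm2 (0.87), Igtp (0.87), H2-Q4 (0.87) and H2-T23 (0.86). Among them Ddx3y is Y-linked, and the male share of these 16 groups ran from 3.19% to 35.6%.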

How the data were processed

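Per the labels, each sample was a 10x single-cell library of stromal cells sorted from intestinal grafts. The samples' description field instead speaks of adult stroma in the steady state, and their title and tissue, which say grafted, were followed. The authors aligned reads to mm10 with Cell Ranger 3.1.0 and used Seurat 3, and the deposited values are raw UMI counts per gene and barcode. From these counts, cells with fewer than 500 genes or over 10% mitochondrial UMIs were removed. Scrublet scores were computed per library. Its own threshold called 0 LI graft and 1 SI graft barcodes and was not used, and the 1071 and 742 highest scores (0.8% per 1000 barcodes) were removed. Classes were gated by the number of markers detected, and every marker list was checked against its class. Of 5 ICC markers, 1 had no matching symbol. UMIs were pooled per class and library, as CPM with exact Poisson 95% intervals. Shares have exact Clopper-Pearson intervals, and ratios, taken as log2(CPM + 1), have exact binomial ones. With 1 library per group no test was run. A gene was counted as different at 2-fold or more. All 10 genes of the set are named. Genes of other lists are given by counts with up to 4 examples, largest ratios first (1 gene is not reported here), and the 10 genes most like the set are named by Pearson r among genes with at least 50 CPM in 1 group. The genes, lists and classes were chosen with earlier results of these data known. Gapdh, Cxcl9, Irf1 and Socs1 as examples by sex, and both cell filters added later (at least 5000 UMIs, and sex from at least 2 UMIs), were chosen after seeing the data. Alternatives covered the cell filter, doublets, gates, clusters, per-cell means, the pseudocount, TMM scaling, female cells only, the class II limit and thinning. The ratio script was tested on simulated data. Software was R 4.3.3 with edgeR 4.0.16 (for TMM only), and Python 3.11.15 with scanpy 1.11.5, scipy 1.17.1, numpy 2.4.6 and pandas 2.3.3. Intervals reflect depths of 500 to 48375 UMIs per barcode and count no biological variation.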

Additional observations from a re-analysis of the deposited data

Results flagged for a closer look

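In 3 results the ratio ran one way in the LI graft and the other way in the SI graft, each with an interval of counting error that excluded 0. The difference between the grafts was not tested, since each is 1 library. Psmb10 was higher in female pericytes than in female FB of the LI graft, with a log2 ratio of 0.48, and lower in the SI graft, at -0.20. Psmb8 was lower in SMC than in FB of the LI graft, at -0.27, and higher in the SI graft, at 0.19, but in female SI graft cells alone it was lower, at -0.47. Tapbp was higher in male than in female class II negative FB of the LI graft, at 0.52, and lower in the SI graft, at -0.12.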

How the results depend on the processing

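In FB, the direction of every gene of the set in the LI over SI, male over female and class II comparisons was the same under all alternatives run for them, and the LI over SI median stayed between -0.93 and -0.86. Male cells only and class II negative cells only were not among these alternatives. In those subsets Tap2 was at -0.18 for class II in male LI graft FB. Tapbp was at -0.12 for male over female in class II negative SI graft FB. Pericyte and SMC against FB did not hold as well. No paired analysis was possible because each group is 1 library and the labels give no replicate numbers. Among female cells only, the LI over SI count at least 2-fold lower was 2 of 10, the class II median was 0.49 (count 2) in the LI graft and 0.62 (count 1) in the SI graft, the SI graft pericyte over FB median turned to -0.44, the SMC over FB median was -0.81, and the inducible share of the 6 proteasome subunits was 37.1% (LI graft) and 48.3% (SI graft). There the SI graft pericyte ratio turned for B2m (-0.52), Tap1 (-0.20), Tap2 (-0.34), Psmb8 (-0.36), Psmb9 (-0.78), Psmb10 (-0.20) and Nlrc5 (-0.25), the SMC ratio of Psmb8 to -0.47, and in the LI graft the pericyte ratio of B2m to -0.0073. With a UMI of at least 1 class II gene the medians were 0.89 (count 4) and 1.05 (count 5). In cells thinned to 2000 UMIs the SI graft class II median was 1.51. Under per-cell means, the LI over SI median in male FB was -0.15, male over female in the SI graft 0.94, pericyte over FB 0.37 and SMC over FB -0.29 in the SI graft, the SI graft inducible share 56.2%, and the LI graft pericyte ratio of H2-K1 0.0787. With a pseudocount of 5 CPM, male over female in the SI graft was 0.93 and class II 1.23, and with TMM they were 1.10 and 1.41. TMM moved the median of all genes by -0.14 in pericyte over FB in both grafts and by 0.10 in male over female LI graft FB. Classes from clusters gave -0.23 (LI graft pericyte over FB), -0.34 (SI graft SMC over FB) and -0.10 for B2m in LI graft pericytes. A stricter gate gave 0.71 and -0.25 for SI graft pericytes and SMC. Without doublet removal SI graft SMC over FB was -0.0172 and class II 1.28. In cells with at least 5000 UMIs, chosen after seeing the data, SI graft pericyte over FB was 0.79, with H2-K1 at 0.0807 and H2-D1 at 0.0338, and the inducible share 60.4%. Thinned to 1000 UMIs, the H2-K1 share of FB was 36.3% (LI graft) and 68.0% (SI graft), and without thinning 71.1% and 93%. With no minimum CPM, 1.21% of all genes were at least 2-fold lower in LI graft FB. The cause of these shifts was not tested. Depth limits Nlrc5 most, which had 6 UMIs in female PDGFRAhi FB of each graft.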

Other observations

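Mesothelial cells were few, 27 of the LI and 19 of the SI graft, and were left out of the order of classes. In them the share with a UMI of at least 2 class II genes was 55.6% and 68.4%. Among genes outside the set, Irf8 was lower in male than in female FB of the LI graft (63.2 against 99.9 CPM) and higher in the SI graft (165 against 132 CPM), and the chaperone Calr was higher in the LI graft (1042 against 547 CPM) and lower in the SI graft (627 against 677 CPM). The differences between the grafts were not tested. Ciita, the transactivator of class II genes, stood at 0.12 CPM in female and 1.73 CPM in male LI graft FB and at 0.23 and 3.33 CPM in the SI graft. The LI graft FB held Gapdh at 2211 CPM in male cells, against 534 to 638 CPM in the other groups of sex and graft.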
